A study of Mus musculus with 4 samples.

Results

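Heme and iron handling was described through 8 genes, *Hmox1*, *Blvrb*, *Trf*, *Tfrc*, *Slc11a1*, *Fth1*, *Ftl1* and *Slc40a1*, chosen by symbol from the 30905 genes of a single-cell RNA-seq data set of mouse heart grafts. The animals were young adult males, and hearts of the strain labelled Balb/C (allogeneic, 2 grafts) or C57BL/6J (syngeneic, 2 grafts) were placed in the abdomen of C57BL/6J recipients and collected on day 5. A graft therefore holds donor tissue and cells that came from the recipient. The tissue was digested with enzymes and treated with red blood cell lysis buffer before droplet capture. Unique molecular identifiers (UMIs), each standing for 1 captured transcript, were counted per gene and cell. The 4 libraries are known only by barcode suffixes 1 to 4 in 1 merged matrix, and no source used here ties a suffix to a graft. All cells were treated as 1 pooled sample, each library's value is given, allogeneic and syngeneic grafts were not compared, and nothing was tested.

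Heme from hemoglobin and other proteins is opened by heme oxygenase 1 (*Hmox1*) into iron, carbon monoxide and biliverdin, and biliverdin reductases such as *Blvrb* reduce biliverdin-type pigments. Iron travels in plasma on transferrin (*Trf*), enters cells through the transferrin receptor (*Tfrc*), and is moved out of phagosomes and endosomes by the transporter encoded by *Slc11a1*. Ferritin, a shell of heavy (*Fth1*) and light (*Ftl1*) chains, stores iron, and ferroportin (*Slc40a1*) is the exporter through which macrophages return iron from engulfed red cells to plasma. Iron regulatory proteins bind a short RNA hairpin, the iron-responsive element, when iron is low. Bound in the 5′ untranslated region (UTR) it blocks translation, and bound in the 3′ UTR of *Tfrc* it protects the message from decay. Message levels of ferritin and ferroportin are thus only a partial view of their protein.

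The members whose transcripts hold a match to this hairpin are shown first. GENCODE M21 transcripts on GRCm38 were searched on the sense strand for 27-base windows with the loop CAGTG followed by A, C or T. Also required were an unpaired C below the upper stem, 5 of 5 pairs in that stem and at least 3 of 5 in the lower stem. G with T was counted as a pair. A match was found in 68 of 21877 protein-coding genes (0.311%) and in 4 of the 8 members. The 6 loop bases are in capitals, with T for U.
*Slc40a1*, 5′ UTR, chr1:45925466-45925492, minus strand: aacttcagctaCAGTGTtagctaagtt
*Tfrc*, 3′ UTR, chr16:32631220-32631246, plus strand: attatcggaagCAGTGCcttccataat
*Tfrc*, 3′ UTR, chr16:32631599-32631625, plus strand: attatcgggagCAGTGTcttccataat
*Tfrc*, 3′ UTR, chr16:32631664-32631690, plus strand: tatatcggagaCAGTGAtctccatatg
*Tfrc*, 3′ UTR, chr16:32631711-32631737, plus strand: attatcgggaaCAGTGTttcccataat
*Fth1*, 5′ UTR, chr19:9982733-9982759, plus strand: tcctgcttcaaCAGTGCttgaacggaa
*Ftl1*, 5′ UTR, chr7:45459780-45459806, minus strand: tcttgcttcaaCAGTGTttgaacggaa
Each match lies within 1 exon. *Slc40a1*, *Fth1* and *Ftl1* have it ahead of the coding sequence and *Tfrc* has 4 behind it, while no window of *Hmox1*, *Blvrb*, *Trf* or *Slc11a1* met these criteria. A match describes these letters and is not a measured binding site.

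After filters on genes, mitochondrial UMIs and doublets, 42395 of 53824 barcodes remained, 9358 to 12496 per library. Between 137 and 164 barcodes of each library also occur in another library, as counted before filters. Cells were clustered with the 67 genes of a wider heme and iron list left out, and 23 of 28 clusters were named from marker genes into 11 classes, written here as macrophage-like, granulocyte-like and so on. Levels are UMIs of a gene per 1000000 non-mitochondrial UMIs (CPM), pooled over the cells of a class, and intervals are exact 95% Poisson or Clopper-Pearson intervals that cover counting error only. Classes were unevenly spread over libraries. A cluster of 764 cells with granulocyte markers, 760 of them from library 4, stayed unnamed and is outside the granulocyte-like class. Library 4 gave 5900 of 8587 macrophage-like cells, and library 2 gave 2700 of 3054 granulocyte-like and 1986 of 1994 erythroid-like cells. The last class was shallow, with a median of 813 UMIs per cell, and also carried endothelial and granulocyte genes (*Cdh5* at 614 CPM and *S100a8* at 4535 CPM), so its levels belong to a mixture. *S100a8* was found in 98.3% of its cells, *Hbb-bs* in 56.3% and *Alas2* in 3.91%. The name erythroid-like is thus a marker label, and its levels are not shown to be those of erythroid cells. Cardiomyocyte-like cells were also shallow, with a median of 1277 UMIs. Hemoglobin took 2.99%, 0.0948% and 0.0124% of their UMIs in libraries 1 to 3, and granulocyte marker transcripts took 0.00708%, 0.792% and 0.00699%. Dendritic-like cells were uneven too. The 1103 from library 4 had a median of 1080 UMIs, 4.58% hemoglobin UMIs and the macrophage gene *C1qc* at 273 CPM, against medians of 16866 and 13505 UMIs, at most 0.0191% hemoglobin and 4.15 and 41.9 CPM of *C1qc* in libraries 1 and 3.

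Of the 8 members, 4 were highest in macrophage-like cells (*Hmox1*, *Blvrb*, *Slc11a1* and *Ftl1*), 3 in granulocyte-like cells (*Fth1*, *Trf* and *Slc40a1*) and *Tfrc* in T/NK-like cells. Among 11401 genes with a UMI in at least 10% of cells of a class, 7.41% were highest in macrophage-like and 7.16% in granulocyte-like cells. The members were chosen with earlier results of these data known, so the counts here and below are descriptions only. Against endothelial-like cells, the largest class, 7 of 8 members were at least 2-fold higher in macrophage-like cells with 10 CPM added to both sides, where 12.2% of 9069 genes were. The exception was *Tfrc* at 7.93 against 22.4 CPM, and no member was 2-fold lower, where 20.3% of genes were. Within library 1 the count was again 7 of 8 (11.7% of all genes) and within library 3 it was 7 of 8 (10.8%). It was 6 of 8 in library 2 (10.7%) and in library 4 (12.2%), where *Slc40a1* did not reach 2-fold.

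**Figure D1:**
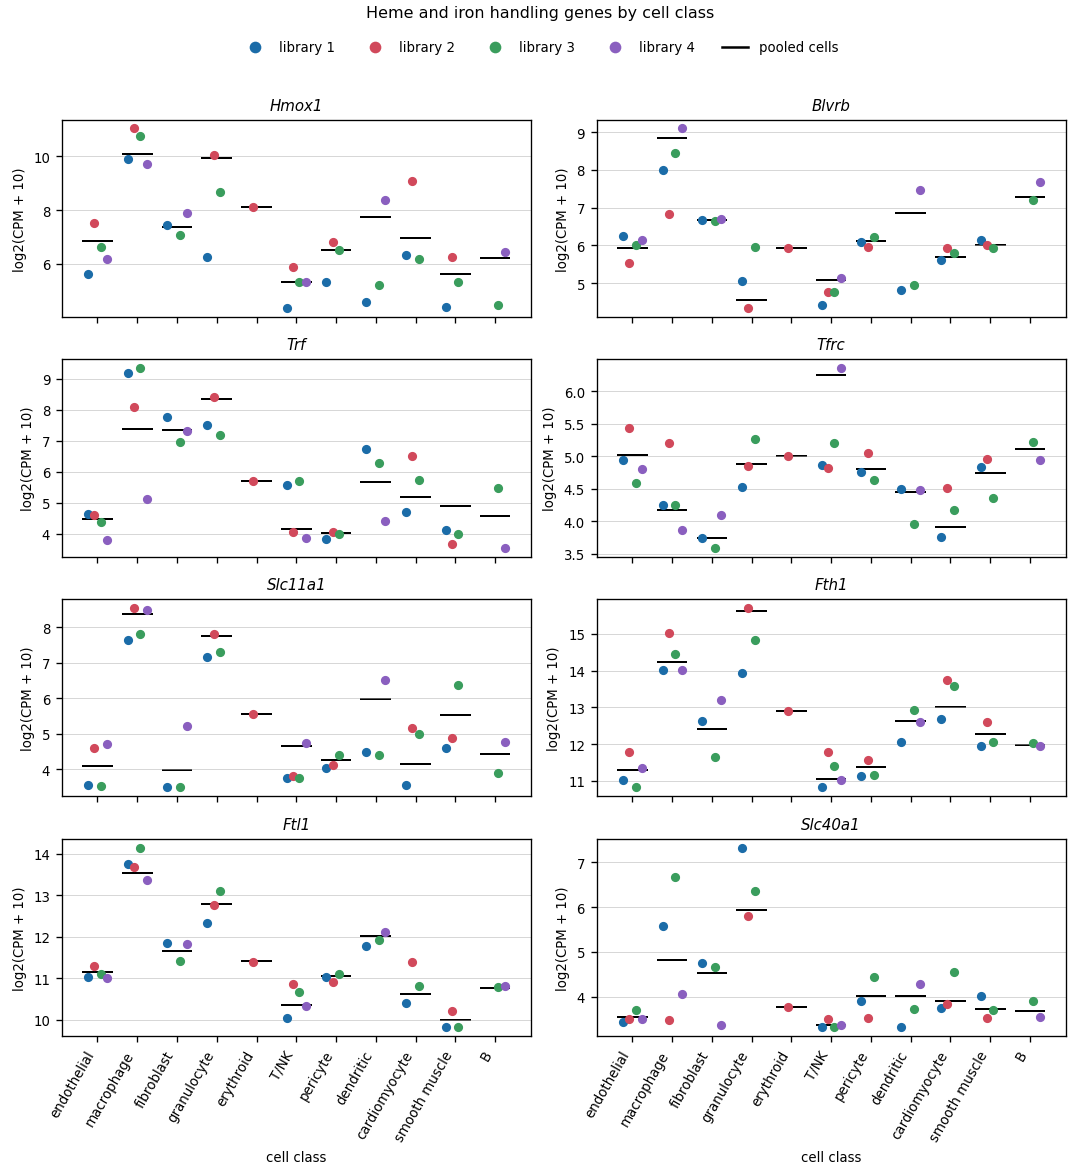
Levels of the 8 genes as log2(CPM + 10) in the 11 named cell classes. Coloured points are libraries with at least 50 cells of the class and black lines are all cells of the class pooled; *Hmox1*, *Slc11a1* and *Ftl1* sit highest in macrophage-like cells, *Fth1* in granulocyte-like cells, and the 4 macrophage-like points of *Trf* and *Slc40a1* are spread over a wide range.

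*Hmox1*, the enzyme that opens heme, was at 1088 CPM in macrophage-like cells (1082 to 1094). By library it was 940, 2089, 1706 and 826 CPM in libraries 1 to 4. Granulocyte-like cells had 975 CPM (958 to 992), with 67.5, 1047 and 401 CPM in libraries 1 to 3. The ranges of these top classes overlap, but macrophage-like cells were higher in each of libraries 1 to 3, and 2700 of the 3054 granulocyte-like cells were from library 2. With each cell weighted equally, or without library 3, granulocyte-like cells were highest. Below them came erythroid-like (266 CPM), dendritic-like (207 CPM), fibroblast-like (156 CPM), cardiomyocyte-like (116 CPM) and endothelial-like cells (105 CPM). The dendritic-like value came from library 4, with 323 CPM against 14.1 and 27.6 CPM in libraries 1 and 3. Pericyte-like cells had 82.2, B-like cells 65.3, smooth muscle-like cells 39.0 and T/NK-like cells 29.7 CPM. An *Hmox1* UMI was found in 81.4% of macrophage-like cells (80.5 to 82.2) and 28.8% of T/NK-like cells, at median depths of 14212 and 8441 UMIs. With cells thinned to 1000 UMIs the shares were 31.0% and 4.12%, and 42.1% in granulocyte-like cells.

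*Hmox1* was higher in library 2 than in the other libraries in endothelial-like, pericyte-like, smooth muscle-like, cardiomyocyte-like and T/NK-like cells. In endothelial-like cells it was 39.2, 176, 89.2 and 63.3 CPM in libraries 1 to 4. Transcripts of the granulocyte marker list took 0.348% of endothelial-like UMIs in library 2, against 0.00258% to 0.00955% elsewhere. Without endothelial subcluster 6, whose 811 cells were all from library 2 and were led by granulocyte genes, library 2 had 121 CPM of *Hmox1*. *S100a8* and *S100a9* together reached 1.75% of the granulocyte-like level of that library in all its endothelial-like cells and 0.715% without subcluster 6. *Hmox1* reached 16.8% and 11.6% of its own granulocyte-like level. Of the 166 T/NK-like cells of library 2, 160 lay in unnamed T/NK subcluster 4, led by *S100a8*, *Fabp4* and *S100a9*. In library 2 T/NK-like cells reached 1.24% for *S100a8* with *S100a9* and 4.74% for *Hmox1*. Cardiomyocyte-like cells there reached 4.03% and 50.8%, pericyte-like cells 0.622% and 9.72%, and smooth muscle-like cells 0.451% and 6.40%. These shares refer to granulocyte-like cells alone. In library 2 macrophage-like cells held more *Hmox1* (2089 CPM) than granulocyte-like cells (1047 CPM). The part of RNA from granulocytes or other cells in these levels was not tested.

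*Blvrb*, which reduces biliverdin-type pigments and flavins, had the sharpest split between the phagocyte classes. It was at 448 CPM in macrophage-like cells (444 to 452) and at 13.5 CPM in granulocyte-like cells (11.5 to 15.7), its lowest class. Macrophage-like cells had 245, 103, 340 and 538 CPM in libraries 1 to 4, all above the granulocyte-like 23.4, 10.3 and 52.2 CPM of libraries 1 to 3. B-like cells were next at 147 CPM, with 137 CPM in library 3 and 195 CPM in library 4, above macrophage-like cells of library 2. Dendritic-like cells had 107 CPM, with 18.3, 20.9 and 168 CPM in libraries 1, 3 and 4, and fibroblast-like cells had 91.3 CPM. The fibroblast-like libraries lay within 89.8 to 94.9 CPM. From pericyte-like (59.1 CPM) through smooth muscle-like (54.0 CPM), endothelial-like (51.4 CPM) and erythroid-like (51.2 CPM) to cardiomyocyte-like cells (41.4 CPM) the neighbours overlapped in their libraries or intervals, and T/NK-like cells had 23.8 CPM. *Blvrb* thus ran opposite to *Fth1* and *Slc40a1* in the pooled comparison of granulocyte-like with macrophage-like cells. In it 2 of 8 members, *Fth1* and *Slc40a1*, were at least 2-fold higher (9.75% of all genes) and *Blvrb* was lower (29% of all genes). Granulocyte-like cells came mostly from library 2 and macrophage-like cells mostly from library 4, so library make-up enters these counts. Within libraries 1 to 3 *Fth1* was at 15559 against 16648, 53573 against 33639 and 29439 against 22259 CPM. *Slc40a1* was lower in the granulocyte-like cells of library 3.

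*Trf*, the plasma iron carrier, best known as a liver product, was at 315 CPM in granulocyte-like cells (305 to 325). By library these were 171, 333 and 135 CPM in libraries 1 to 3. Macrophage-like cells had 156 CPM and fibroblast-like cells 153 CPM, with close pooled levels. Without library 2 the highest class was fibroblast-like, and without library 4 macrophage-like. The macrophage-like libraries differed widely, with 564, 259 and 635 CPM in libraries 1 to 3 and 24.7 CPM in library 4. Macrophage-like cells were therefore above granulocyte-like cells in libraries 1 and 3, and below them in library 2. The fibroblast-like cells of library 4 kept 149 CPM beside 206 and 115 CPM in libraries 1 and 3. Of the classes with at least 50 cells in library 4, only the fibroblast-like one was not lowest in that library. All other classes were at 42.3 CPM or less when pooled, from erythroid-like (42.3 CPM) and dendritic-like (40.8 CPM) down to pericyte-like cells (6.20 CPM). Endothelial-like cells had 3.83 CPM in library 4 and at most 14.8 CPM, in library 1. T/NK-like cells had 4.70 CPM in library 4 and at most 41.8 CPM, in library 3. In B-like cells *Trf* was lower in library 4 than in library 3, at 1.72 against 34.8 CPM, with only 19 UMIs in the whole class. In dendritic-like cells it was 11.3 against 68.3 CPM, but the library 4 cells were the shallow, hemoglobin-carrying ones described above.

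*Tfrc*, the receptor for transferrin-bound iron, was low throughout and highest in T/NK-like cells at 65.8 CPM (62.7 to 69.0). Library 4 had 71.9 CPM, beside 19.0, 18.3 and 26.7 CPM in libraries 1 to 3, and without it B-like cells were highest. The T/NK-like cells of these libraries were not alike. In library 2, 160 of 166 lay in unnamed subcluster 4, led by *S100a8* and *Fabp4*. Unnamed subcluster 6, led by hemoglobin genes and *Mb*, held 73 of 175 in library 1 and 36 of 122 in library 3. B-like (24.4 CPM), endothelial-like (22.4 CPM), erythroid-like (22.0 CPM), granulocyte-like (19.4 CPM), pericyte-like (18.1 CPM) and smooth muscle-like cells (16.8 CPM) followed, and their libraries overlapped. Macrophage-like cells had 7.93 CPM and fibroblast-like cells the least, 3.42 CPM. Among the T/NK subclusters of library 4, *Tfrc* was highest in subcluster 5, led by *Ifng*, *Ccl3* and *Xcl1*, at 157 CPM. The larger cycling subcluster had 89.4 CPM and the smaller one 28.7 CPM, while *Mki67*, a marker of dividing cells, was at 28.5 CPM in subcluster 5 and at 515 and 803 CPM in the cycling subclusters. Regulatory T-like and NK-like cells of that library had 14.4 and 16.7 CPM of *Tfrc*. Over the 53 subclusters of at least 50 cells in 5 compartments, Pearson's r of *Tfrc* with *Mki67* was 0.23 and Spearman's rho 0.21, given as a description of clusters that share libraries.

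*Slc11a1*, the phagosomal metal transporter, was at 323 CPM in macrophage-like cells (319 to 326), with 190, 363, 215 and 345 CPM in libraries 1 to 4. Granulocyte-like cells had 206 CPM (198 to 214), with 132, 212 and 147 CPM in libraries 1 to 3. Here, too, macrophage-like cells were higher in each of libraries 1 to 3, though the ranges overlap. Dendritic-like cells had 52.5 CPM, erythroid-like 36.9 CPM and smooth muscle-like 35.8 CPM, the last with 73.2 CPM in library 3 against 14.3 and 19.6 CPM in libraries 1 and 2. T/NK-like cells had 14.97 CPM and the other classes less. At 1000 UMIs per cell a *Slc11a1* UMI was found in 25.1% of macrophage-like, 18.0% of granulocyte-like and 0.952% of endothelial-like cells.

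Ferritin took a large share of all message in the phagocytes. *Fth1* and *Ftl1* together made up 5.79% of granulocyte-like UMIs, 3.11% of macrophage-like UMIs and 0.478% of endothelial-like UMIs. *Fth1* was at 50840 CPM in granulocyte-like cells (50716 to 50965), with 15559, 53573 and 29439 CPM in libraries 1 to 3. Macrophage-like cells had 19232 CPM, with 16648, 33639, 22259 and 16517 CPM in libraries 1 to 4. The order of these classes held in libraries 2 and 3 and not in library 1. Cardiomyocyte-like cells came next at 8202 CPM, with 6505, 13675 and 12240 CPM in libraries 1 to 3. Erythroid-like (7616 CPM), dendritic-like (6302 CPM), fibroblast-like (5421 CPM), smooth muscle-like (4934 CPM) and B-like cells (4047 CPM) followed. Pericyte-like (2639 CPM), endothelial-like (2514 CPM) and T/NK-like cells (2118 CPM) were lowest and overlapped in their libraries.

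*Ftl1* had a different order, with macrophage-like cells (11914 CPM) above granulocyte-like cells (7074 CPM). Every macrophage-like library, at 13782, 13180, 18119 and 10483 CPM, was above every granulocyte-like library, at 5127, 7008 and 8821 CPM. Dendritic-like (4167 CPM), fibroblast-like (3206 CPM), erythroid-like (2751 CPM), endothelial-like (2267 CPM), pericyte-like (2109 CPM) and B-like cells (1726 CPM) followed. Cardiomyocyte-like cells, high in *Fth1*, had 1574 CPM of *Ftl1*, and T/NK-like and smooth muscle-like cells had 1303 and 1014 CPM. The matrix also lists the pseudogene *Ftl1-ps1*, at 158 CPM in macrophage-like cells, and copies of this gene can share reads, so the level of *Ftl1* is uncertain by what the counting gave to such copies.

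The ratio of *Fth1* to *Ftl1* counts was 7.19 in granulocyte-like, 5.21 in cardiomyocyte-like and 4.86 in smooth muscle-like cells, and between 1.11 and 2.77 in the other named classes. Both genes were counted from 3′ ends with no length term, so the ratio compares classes and is not a ratio of molecules in the ferritin shell. Granulocyte-like cells had 3.03, 7.64 and 3.34 in libraries 1 to 3. Smooth muscle-like cells were even over libraries, with 4.38, 5.27 and 4.67. Macrophage-like cells had 1.21, 2.55, 1.23 and 1.58 in libraries 1 to 4, lower than granulocyte-like cells in each library with both.

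**Figure D2:**
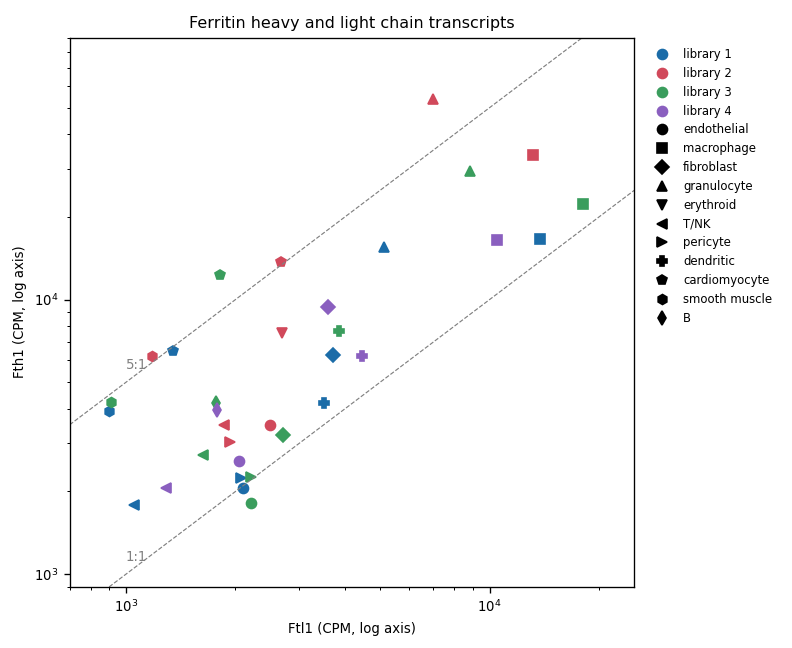
*Fth1* against *Ftl1* in CPM on log axes, 1 point for each class and library with at least 50 cells; shape gives the class, colour the library and dashed lines ratios of 1:1 and 5:1. Macrophage-like points lie at the right with ratios of 1.21 to 2.55, while smooth muscle-like and cardiomyocyte-like points and the granulocyte-like point of library 2 (a ratio of 7.64) lie near or above the upper line.

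*Slc40a1*, the iron exporter, was the least abundant member, at 11.1 CPM over all cells. Granulocyte-like cells had 51.0 CPM (47.1 to 55.1), with 151, 46.0 and 72.0 CPM in libraries 1 to 3. Macrophage-like cells had 18.3 CPM, with 37.5 and 92.5 CPM in libraries 1 and 3 and 1.22 and 6.71 CPM in libraries 2 and 4. The order of the classes was therefore turned in library 3, where macrophage-like cells were higher. Fibroblast-like cells had 13.2 CPM, with 17.1 and 15.2 CPM in libraries 1 and 3 and 0.405 CPM in library 4. Pericyte-like cells had 6.14 CPM, and every other class between 0.355 CPM (T/NK-like, 9 UMIs) and 6.10 CPM. A UMI was found in 15.3% of granulocyte-like cells, in 14.7% of fibroblast-like cells, which were deeper (medians of 3758 and 14385 UMIs), and in 1.23% of endothelial-like cells at a median of 5772 UMIs. In T/NK-like cells it was 0.483% at a median of 8441 UMIs.

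Across libraries the macrophage-like class was the more variable of the 2 largest classes. Between its highest and lowest library 6 of 8 members differed at least 2-fold, where 24.6% of 8260 genes did, the exceptions being *Ftl1* and *Slc11a1*. The folds, with 10 CPM added, were 18.6 for *Trf*, 9.14 for *Slc40a1*, 4.85 for *Blvrb*, 2.52 for *Tfrc*, 2.51 for *Hmox1* and 2.04 for *Fth1*. In endothelial-like cells 2 of 8 members, *Hmox1* (3.77-fold) and *Slc11a1* (2.24-fold), differed by as much, where 21.3% of 9091 genes did. *Slc11a1* was low there, from 1.62 CPM in library 3 to 16.1 CPM in library 4. Macrophage marker transcripts took 0.0436% of endothelial-like UMIs in library 4, against 0.0133% to 0.0183% elsewhere. In library 2 *Slc11a1* was at 14.2 CPM, and at 4.02 CPM without subcluster 6. The part of RNA from other cells was not tested. In both classes the cells of libraries 1 and 3, of library 2 and of library 4 lay mostly in different clusters. Library and cell state therefore cannot be told apart in these folds. Within endothelial-like cells *Fth1* was highest in subcluster 6 of library 2, led by granulocyte genes, at 16195 CPM. Among the others the lymphatic subcluster stood apart in *Fth1*, at 8957 and 6833 CPM in libraries 1 and 3. Its *Trf* was at 104 and 91.3 CPM there. The arterial subcluster had 2046 and 1732 CPM of *Fth1* and 3.50 and 11.4 CPM of *Trf* in the same libraries.

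A second round of clustering split the macrophage-like and dendritic-like cells into 14 subclusters, and since most came from 1 library, comparisons within a library are the clearer ones. *Hmox1* was highest in subcluster 6, named inflammatory and led by *Ccl8* and *Fcgr4*, at 2467 CPM in library 4. Subcluster 4 of library 2, led by *Cxcl3*, *Lcn2*, *Arg1* and *Chil3* and left unnamed, had 2213 CPM. The resident subclusters had 789 CPM (subcluster 3, library 1), 1713 CPM (subcluster 3, library 3) and 1693 CPM (subcluster 9, library 2). Of the other library 4 subclusters, inflammatory subcluster 1 had 742 CPM and infiltrating subcluster 2 had 434 CPM. Conventional dendritic cells lay far lower, at 13.2 to 42.2 CPM in libraries 1, 3 and 4, and mature dendritic cells had 30.4 CPM.

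*Slc40a1* and *Trf* differed widely between subclusters. *Slc40a1* was at 43.6 and 101 CPM in resident subcluster 3 of libraries 1 and 3, at 37.1 CPM in subcluster 6 and at 41.8 CPM in the cycling subcluster of library 4. It was at 6.26 CPM in resident subcluster 9, and at 2.29, 1.17 and 0.329 CPM in subclusters 1, 2 and 4. *Trf* was at 709, 681 and 559 CPM in the resident subclusters (3 in library 1, 3 in library 3, 9 in library 2), then 205 CPM in subcluster 4, 88.4 CPM in the *Ccl8*-led subcluster 6, and 16.0 and 14.1 CPM in subclusters 1 and 2. Unnamed subclusters led by genes of other cell types held both genes too. *Trf* was at 454 CPM and *Slc40a1* at 101 CPM in the library 3 cells of endothelial-led subcluster 7, and *Trf* was at 535 and 345 CPM in muscle- and fibroblast-led subcluster 10 of libraries 1 and 3. *Tfrc* was at 53.7 CPM in resident subcluster 9 and at 22.0 CPM in subcluster 4, both of library 2, and at most 9.47 CPM in subclusters 1, 2, 3 and 6. *Blvrb* was at 517 to 569 CPM in subclusters 1, 2 and 6 of library 4, at 270 and 358 CPM in resident subcluster 3, and at 85.8 CPM in subcluster 4. *Fth1* peaked in subcluster 4 at 36228 CPM and *Ftl1* in resident subcluster 3 of library 3 at 18546 CPM. Subcluster 4 also held *S100a8* at 3642 CPM, against 29.1 CPM in subcluster 1 of library 4, and the part of granulocyte RNA in its levels was not tested.

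**Figure D3:**
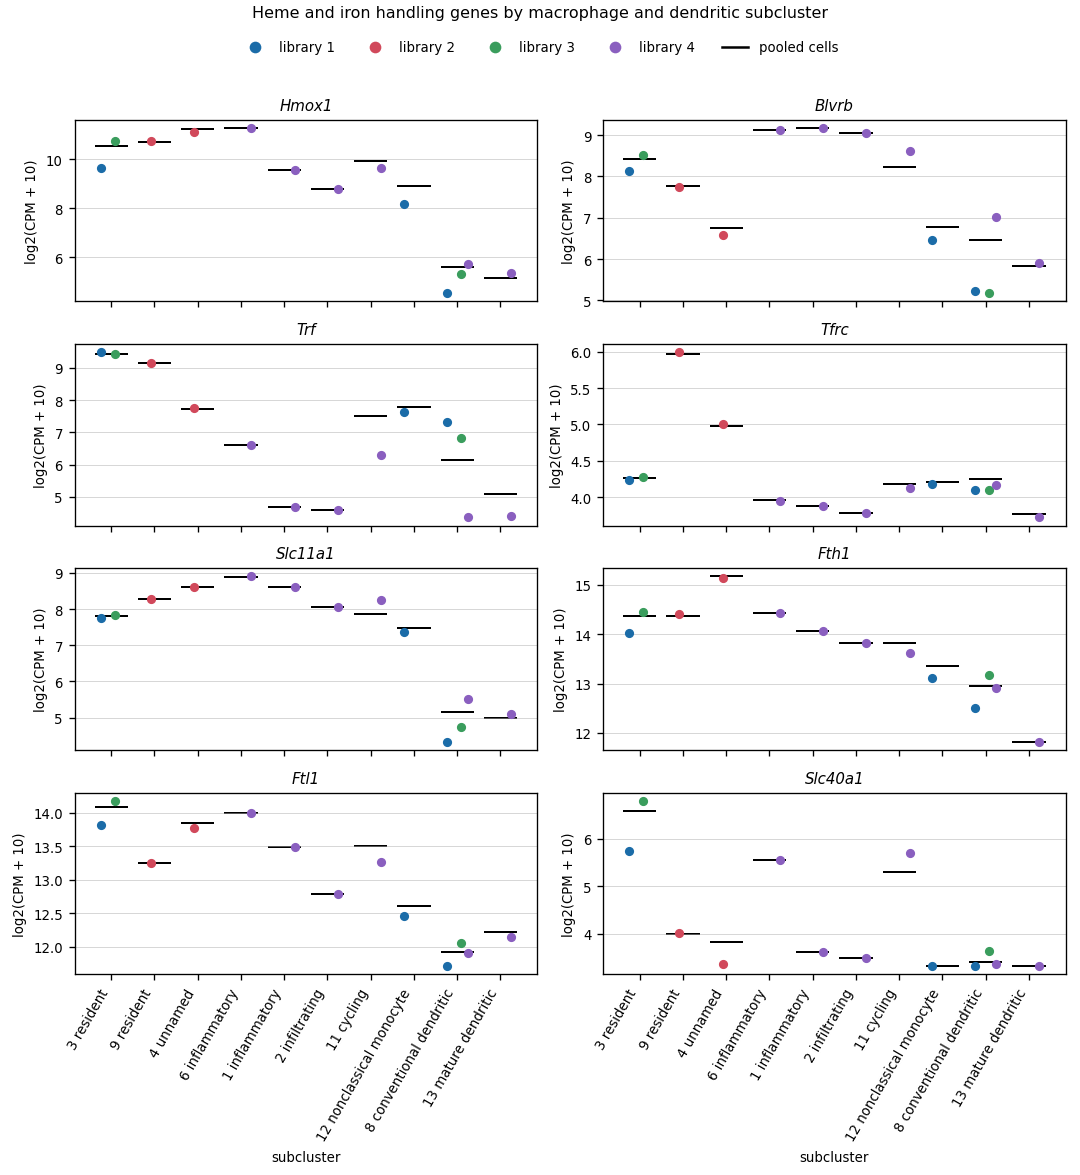
Levels of the 8 genes as log2(CPM + 10) in 10 of the 14 macrophage and dendritic subclusters, leaving out 4 low-depth or hemoglobin-led ones. Points are libraries with at least 50 cells and lines are pooled cells; *Slc40a1* is high in resident subcluster 3, subcluster 6 and the cycling subcluster, and *Trf* falls from the resident subclusters to subclusters 1 and 2 of library 4.

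Within library 4, inflammatory subcluster 6 was set against infiltrating subcluster 2. Subcluster 6 is the one with the highest *Hmox1*, so the count describes this pair and is no independent support. Inflammatory subcluster 1, with 2862 cells in that library against 400, lay nearer to subcluster 2 in *Hmox1*, *Slc40a1* and *Trf*, as given above. At least 2-fold higher were 4 of 8 members, where 3.57% of 7336 genes were: *Hmox1* (5.58-fold), *Slc40a1* (4.21-fold), *Trf* (4.09-fold) and *Ftl1* (2.31-fold). *Slc11a1* was 1.80-fold and *Fth1* 1.53-fold higher, and *Tfrc* (5.44 against 3.80 CPM) and *Blvrb* (552 against 517 CPM) differed by less than that. Within library 2, subcluster 4 was set against resident subcluster 9. At least 2-fold lower were 2 of 8 members, *Trf* (205 against 559 CPM) and *Blvrb* (85.8 against 204 CPM), where 4.32% of 7593 genes were. The pooled resident and infiltrating subclusters can be compared only across libraries, since the infiltrating cells were all from library 4, and library and state cannot be told apart. There *Trf* (28.2-fold), *Slc40a1* (7.76-fold), *Hmox1* (3.38-fold) and *Ftl1* (2.34-fold) were at least 2-fold higher in the resident cells (9.01% of all genes) and no member was 2-fold lower (7.52% of all genes).

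Within the granulocyte-like cells of library 2, subcluster 2 was led by *Bnip3*, *Ero1l*, *Higd1a* and *Egln3*, genes known to respond to low oxygen, and subcluster 1 by *Prnp*, *Ecm1* and *Trf* itself. *Tfrc* reached 55.0 CPM in the former and 7.58 CPM in the latter, and *Hmox1* 2138 and 747 CPM, respectively. *Ftl1* was at 11764 and 5817 CPM and *Fth1* at 77465 and 52768 CPM. *Slc11a1* ran the other way, at 106 and 258 CPM, and *Trf* was at 282 and 433 CPM. At least 2-fold higher in subcluster 2 were 3 of 8 members (*Tfrc*, *Hmox1* and *Ftl1*; 6.3% of 5670 genes) and 1 was lower (*Slc11a1*; 4.2%). *Slc40a1* was between 34.4 and 69.6 CPM in the 5 subclusters with at least 50 cells from library 2 and at 192 and 71.7 CPM in subcluster 3 of libraries 1 and 3. Left without a name for its low depth, a further cluster of 764 cells (760 in library 4) carried 5 of 6 granulocyte markers. Its median of 3022.5 UMIs was low for library 4 but above those of some named granulocyte-like clusters (966.5 and 2965 UMIs). The granulocyte-like levels leave its cells out. In this unnamed cluster *Fth1* was at 25944 CPM, *Slc40a1* at 76.9 CPM, *Hmox1* at 267 CPM and *Trf* at 19.3 CPM.

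Inside a subcluster and library the ferritin chains and *Hmox1* varied together from cell to cell. Macrophage-like and dendritic-like cells thinned to 1000 UMIs were divided by whether an *Hmox1* UMI remained, which left 8 combinations of subcluster and library with at least 50 cells on each side. *Fth1* was higher in cells with an *Hmox1* UMI in 8 of 8, by 1.29 to 1.97 times with a median of 1.46. *Ftl1* was higher in 8 of 8, by 1.41 to 2.08 times with a median of 1.52. In resident subcluster 3 of library 3, for example, 295 cells with an *Hmox1* UMI had 25.3 *Fth1* UMIs per cell and 647 without had 15.8. *Blvrb* was higher in 8 of 8, by 1.09 to 1.82 times, and *Slc11a1* in 6 of 8, with ratios of 0.852 to 1.64 over all 8. *Trf* was higher in 4 of 8. *Slc40a1* was found in 8.81% of cells with and 1.70% of cells without an *Hmox1* UMI in subcluster 3 of library 3, and in 4.29% and 0.791% in library 1. In subcluster 6 of library 4 the shares were 4.65% and 1.08%, and in subcluster 5 of that library they were 0.763% and 0.722%. Subcluster 5, counted among the 8 combinations, was unnamed, led by genes of other cell types such as *Acta1* and *Gzmb*, and had a median of 1080 UMIs. *Tfrc* was higher in 6 of 8, with ratios of 0 to 4.23 over all 8 at low counts. In subclusters 4 and 9 of library 2 none of 719 and 232 thinned cells had a *Slc40a1* UMI. This allows shares of cells with a *Slc40a1* UMI at this depth of up to 0.417% and 1.29%. At full depth these subclusters held 0.329 and 6.26 CPM of *Slc40a1*. A single *Hmox1* UMI is a noisy mark of a cell, and other RNA in the same droplets was not measured apart. No share over all genes was taken for this split, so it is not known how many other genes did the same.

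**Figure D4:**
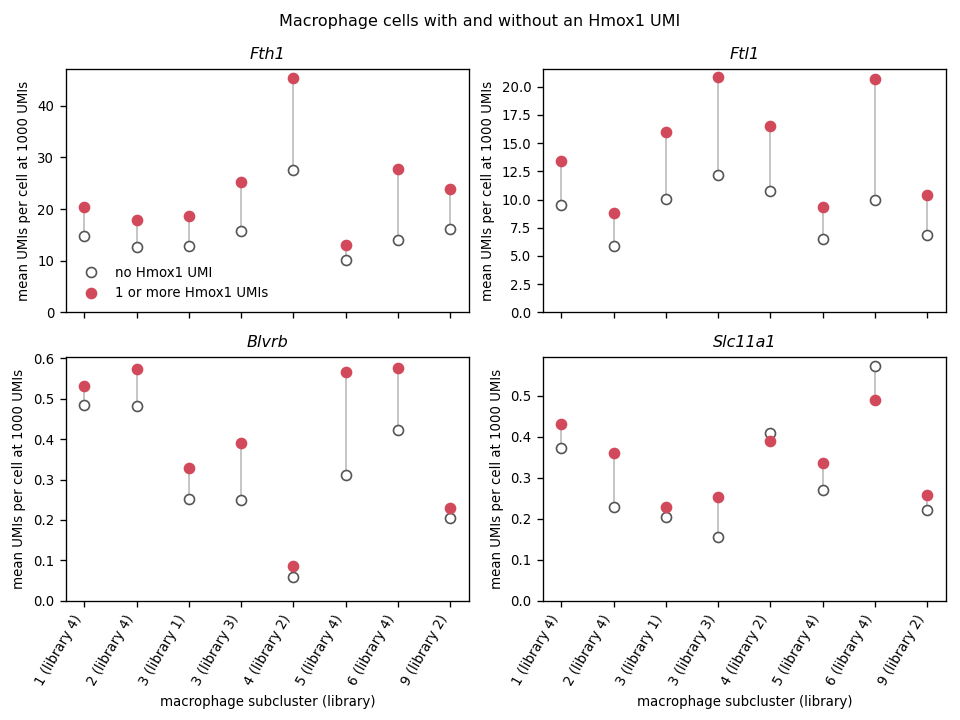
Mean UMIs per cell, at 1000 UMIs, of *Fth1*, *Ftl1*, *Blvrb* and *Slc11a1* in macrophage-like and dendritic-like cells with (filled) and without (open) an *Hmox1* UMI, for 8 combinations of subcluster and library. Filled points lie above open ones in all 8 for the first 3 genes and in 6 of 8 for *Slc11a1*.

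Over 33 class-by-library units of at least 50 cells, the members were compared with one another and with 10879 genes by Pearson's r of log2(CPM + 10), as a description of units that share libraries and free RNA. *Hmox1* was most like *Ftl1* (0.83) and *Fth1* (0.77) among the members, and *Tfrc* had a negative r with each other member, from -0.33 with *Trf* to -0.02 with *Slc11a1*. Of the nearest genes outside the list, *Hmox1* was close to *Plin2* (0.86), a coat protein of lipid droplets, *Cxcl2* (0.84) and *Pf4* (0.83). *Blvrb* was close to *Lgmn* (0.82) and *Rufy3* (0.80), and *Slc11a1* to *Pilra* (0.92), *Fcgr3* (0.91) and *Pla2g7* (0.91). *Fth1* was nearest to *Emilin2*, *Cd14* and *C5ar1* (each 0.87), and *Ftl1* to its pseudogene *Ftl1-ps1* (0.97), *Sirpa* (0.91) and *Tlr2* (0.90). *Slc40a1* was nearest to *Pfkfb4* (0.88), *Cd300lb* (0.87) and *Hnmt* (0.87), *Trf* to *Spp1* (0.85), *Reps2* (0.81) and *Fam20c* (0.80), and *Tfrc* to *Trir* (0.79), *Hnrnpu* (0.75) and *Hnrnpc* (0.75).

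The wider list set the members beside the rest of the pathway. Of its 67 genes, 53 had a UMI in at least 10% of cells of a named class. Of these, 13 were highest in granulocyte-like and 8 in macrophage-like cells, where 7.16% and 7.41% of all genes were. These counts include the members, *Fth1*, *Trf* and *Slc40a1* in the former and *Hmox1*, *Blvrb*, *Slc11a1* and *Ftl1* in the latter. They are thus not apart from the result given above for the members. Levels are again pooled over libraries, so the limits given above for granulocyte-like, dendritic-like, cardiomyocyte-like and erythroid-like cells apply. All 4 heme breakdown genes were highest in macrophage-like cells (7.41% of all genes). Beside the members *Hmox1* and *Blvrb* these were *Hmox2* at 120 CPM and *Blvra*, the other biliverdin reductase, at 91.1 CPM. Of the heme transport genes, *Hp* (haptoglobin, which binds free hemoglobin) was at 1714 CPM in granulocyte-like cells, *Lrp1* (a receptor for the heme-hemopexin complex) at 821 CPM in fibroblast-like cells and *Abcg2* at 153 CPM in endothelial-like cells. Among uptake genes beside *Trf*, *Tfrc* and *Slc11a1*, *Lcn2* (which binds bacterial iron carriers) was at 8714 CPM in granulocyte-like cells. *Steap4* (a metalloreductase) was at 447 CPM in pericyte-like cells, *Steap3* and *Scara5* at 109 and 62.3 CPM in fibroblast-like cells, and *Slc39a14* at 110 CPM in erythroid-like cells. *Cp* (ceruloplasmin, the ferroxidase that works with ferroportin) was at 284 CPM in fibroblast-like cells, where *Slc40a1* was at 13.2 CPM.

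Of the regulators, *Nfe2l2* (NRF2) was at 450 CPM in granulocyte-like and 412 CPM in macrophage-like cells. *Fbxl5*, which degrades an iron regulatory protein, was at 465 CPM in granulocyte-like cells. *Bmp6* was at 42.6 CPM in endothelial-like cells, *Bmp2* at 72.5 CPM in smooth muscle-like cells and *Hfe* at 73.6 CPM in dendritic-like cells. Of the 5 counted NRF2 target genes, 4 were highest in granulocyte-like cells (7.16% of all genes). Only *Slc7a11* (the cystine transporter) stood well apart, at 1837 CPM against 177 CPM in macrophage-like cells. The others highest there were close to the next class, at 113 against 109, 158 against 142 and 40.4 against 38.2 CPM. Of the heme synthesis genes, *Alas1* was at 311 CPM in granulocyte-like and *Fech* at 66.7 CPM in cardiomyocyte-like cells. *Slc25a37*, a mitochondrial iron importer, was at 87.0 CPM in granulocyte-like cells.

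**Figure D5:**
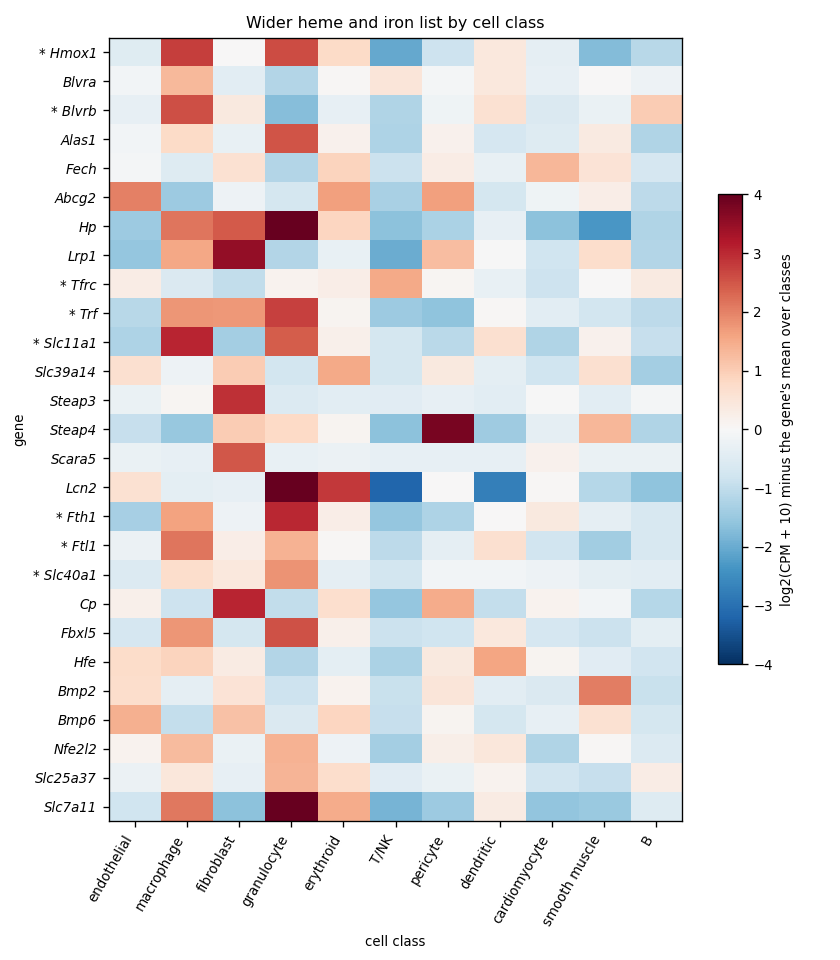
The 8 members (starred) and genes of the wider list with the largest ratios of highest to lowest class, as log2(CPM + 10) minus the gene's mean over 11 classes. *Hp*, *Lcn2*, *Slc7a11* and *Fth1* are highest in the granulocyte-like column, *Slc11a1*, *Hmox1* and *Blvrb* in the macrophage-like column, and *Cp*, *Lrp1* and *Steap3* in the fibroblast-like column.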

How the data were processed

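The authors aligned reads with Cell Ranger to mm10 with Ensembl 92 gene models and deposited raw counts of UMIs per gene and cell, with no normalization, as 1 merged matrix. The submitters' processing notes also name CASAVA 1.8 and Seurat. From these counts, cells with over 200 genes and under 20% mitochondrial UMIs were kept, mitochondrial genes were dropped, and the top 5% of cells by simulated-doublet score were left out per library. The 2000 most variable genes without the heme and iron list, 10 principal components and a graph of 30 neighbours were clustered with leidenalg 0.10.2 at a resolution of 0.8, and 0.5 for subclusters. Clusters were named from at least 3 markers with a UMI in 10% of cells and 2-fold the other clusters (10 CPM added). A cluster led by another class, or under 1/3 of its library's median depth with no marker among its 10 leading genes, stayed unnamed.

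For subclusters, a class with fewer markers could give the name if the first was outnumbered among the leading genes. That rule was chosen after the clusters and levels had been seen, and under the first rule no infiltrating subcluster was named. The members, lists and markers were chosen with earlier results of these data known. Named beside the members were the 20 genes of the wider list with the largest ratio between classes and the 3 genes most like each member, among genes at 20 CPM or more in a unit. 2 of these genes are not reported here. The libraries hold 96020294 to 166079145 UMIs. The steps were tested on simulated data. Python 3.11.15, numpy 2.4.6 and scipy 1.17.1 were used. Alternatives are in the closing section.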

Additional observations from a re-analysis of the deposited data

How the results depend on the processing

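No paired analysis was possible because cells could not be tied to grafts. The log2 ratio of a member's highest class over the mean of the other named classes was *Hmox1* 2.36, *Blvrb* 2.63, *Trf* 2.49, *Tfrc* 1.59, *Slc11a1* 2.77, *Fth1* 3.01, *Ftl1* 2.13 and *Slc40a1* 1.92. The highest class was chosen again under each of 11 alternatives, so the ratio is positive by construction, and 74 of 88 values moved by more than the counting interval. They were *Hmox1* 2.54, *Blvrb* 2.60, *Trf* 2.44, *Tfrc* 1.66, *Slc11a1* 2.87, *Fth1* 3.07 and *Ftl1* 2.16 at a cluster resolution of 1.6, *Hmox1* 2.53, *Blvrb* 2.26, *Trf* 2.43, *Tfrc* 1.66, *Fth1* 3.001, *Ftl1* 2.16 and *Slc40a1* 1.77 with doublets kept, and *Hmox1* 2.55, *Blvrb* 2.70, *Tfrc* 1.66, *Slc11a1* 2.89, *Fth1* 3.05 and *Ftl1* 2.16 with at least 500 genes per cell. With the heme and iron genes kept for clustering they were *Hmox1* 2.59, *Blvrb* 2.38, *Trf* 2.63, *Tfrc* 1.71, *Slc11a1* 2.89, *Fth1* 3.19 and *Ftl1* 2.23. With each cell weighted equally they were *Hmox1* 2.14, *Blvrb* 2.24, *Trf* 2.30, *Tfrc* 1.17, *Slc11a1* 2.43, *Fth1* 2.85, *Ftl1* 1.80 and *Slc40a1* 2.04, and with 1 CPM added *Hmox1* 2.41, *Blvrb* 2.79, *Trf* 2.69, *Tfrc* 2.05, *Slc11a1* 3.03, *Ftl1* 2.13 and *Slc40a1* 2.88. Without the erythroid-like class, an alternative chosen after seeing the data, they were *Hmox1* 2.41, *Blvrb* 2.60 and *Fth1* 3.04. Leaving out 1 library gave *Hmox1* 2.17 to 3.15, *Blvrb* 1.97 to 2.65, *Trf* 1.52 to 2.65, *Tfrc* 0.54 to 1.73, *Slc11a1* 2.68 to 2.94, *Fth1* 2.15 to 3.02, *Ftl1* 2.00 to 2.52, *Slc40a1* 1.70 to 2.67. The cause of these shifts was not tested.

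The log2 ratio of resident over infiltrating subclusters was *Hmox1* 1.76, *Blvrb* -0.68, *Trf* 4.82, *Tfrc* 0.81, *Slc11a1* -0.18, *Fth1* 0.55, *Ftl1* 1.23 and *Slc40a1* 2.96. At a subcluster resolution of 0.3 *Slc11a1* turned to 0.051, and the other values that moved were *Hmox1* 2.13, *Blvrb* -0.55, *Trf* 4.97, *Fth1* 0.79, *Ftl1* 1.51 and *Slc40a1* 3.05. With each cell weighted equally they were *Hmox1* 1.28, *Blvrb* -0.75, *Trf* 4.78, *Slc11a1* -0.38, *Fth1* 0.36, *Ftl1* 1.012 and *Slc40a1* 2.37. Leaving out library 1, 2 or 3 gave *Hmox1* 1.27 to 1.94, *Blvrb* -1.04 to -0.61, *Trf* 4.77 to 4.85, *Tfrc* 0.49 to 1.28, *Slc11a1* -0.24 to -0.11, *Fth1* 0.35 to 0.64, *Ftl1* 0.85 to 1.30, *Slc40a1* 1.83 to 3.11. Without library 4 no infiltrating cell remained, and under the first naming rule no subcluster was named infiltrating, so neither gave a value. The count of members at least 2-fold higher in macrophage-like than endothelial-like cells was 6 to 7 with 1 library left out, a check added after seeing the data. With 1 pooled sample no error between animals could be given.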
